A study of Arabidopsis thaliana with 12 samples.

Results

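The genes described here are 5 WRKY genes, *WRKY6*, *WRKY20*, *WRKY42*, *WRKY47* and *WRKY53*, and the NAC gene *NAC014*. They were found by name: from the platform's annotation, every probe set assigned to 1 gene was kept if its symbol was MYB, WRKY or NAC followed by a number, *WRKY22* excepted. The rule found 6 genes among 13513 probe sets so named, of 22746 tested. It keeps 1 probe set per gene, that with the highest mean over the 12 arrays. No MYB gene was among the 6, so the families stand here for 5 WRKY genes and 1 NAC gene. A reference annotation holds 297 genes with a symbol or synonym of this form, and the other genes of these families were not analysed here. The samples were a dark-grown, habituated *Arabidopsis thaliana* suspension culture derived from roots, kept in hormone-free MS medium with 87 mM xylose (Xyl) as the carbon source and used 7 d after subculturing. Cells were given 1 mM fructose (Fru), glucose (Glc), sucrose (Suc) or, as the control, Xyl for 1 h, with 3 biological replicates of each, and their RNA was hybridised to 12 Affymetrix ATH1 arrays. All 4 groups thus came from cells already adapted to Xyl and from 1 culture line.

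WRKY proteins are plant transcription factors that carry a WRKY domain and bind W-box elements in promoters, and they are best known from defence, senescence and nutrient starvation. NAC proteins share a different DNA-binding domain, and some are held at a membrane until a cut releases the part that enters the nucleus. Sugars are known to change the RNA of several WRKY and NAC genes in whole plants, where senescing leaves and carbon supply are the usual settings. *WRKY6* (AT1G62300) acts in senescence and defence and, with *WRKY42* (AT4G04450), represses the phosphate transporter gene *PHO1*. *WRKY53* (AT4G23810) promotes leaf senescence at an early stage. *WRKY20* (AT4G26640) belongs to the group with a pair of WRKY domains, as does SUSIBA2, a sugar-responsive factor of barley. *NAC014* (AT1G33060) is of the membrane-tethered type. *WRKY47* (AT4G01720) is a WRKY gene to which no role is given here. In the TAIR10.1 annotation *WRKY6* and *NAC014* lie on chromosome 1 and the other members on chromosome 4, and their gene lengths run from 1613 bp for *WRKY53* to 4880 bp for *WRKY20*.

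Values are log2 expression after RMA, in which a difference of 1 is a doubling, and levels of different probe sets are not compared. Array medians ran from 4.69 to 4.83. Arrays with the same replicate number were alike, and replicate number took a median of 54.0% of the sum of squares over all probe sets against 14.2% for sugar. The arrays of replicate 3 stood apart from the others: 47.9% of all probe sets differed between them and replicates 1 and 2 (limma, adjusted p under 0.05). The gene of Aurora kinase *AUR1*, which marks dividing cells, had means of 7.69, 7.45 and 4.55 in replicates 1, 2 and 3. Of the 9 dividing cell markers it was the only one named by the annotation used here, and of 8 vessel element markers none was named. The root hair markers *EXPA7* and *EXPA18* had replicate means between 2.87 and 3.08 and between 3.54 and 3.69, and the other 5 of the 7 listed were not named.

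*WRKY47* was the member that differed most from the Xyl control with each sugar. Its values in Xyl-treated cells were 4.42, 4.93 and 4.29 in replicates 1, 2 and 3. They were 3.98, 4.25 and 3.83 with Fru, 3.69, 4.64 and 3.91 with Glc, and 3.73, 4.57 and 4.07 with Suc. All of these but the Xyl value of replicate 2, at 4.93, lay below the array medians of 4.69 to 4.83. *WRKY47* is thus a gene of low level here, like *WRKY42* and *WRKY53*. Within each replicate number all 3 sugar-treated arrays were below the Xyl array, which makes 9 of 9 pairs, and 4.17% of all probe sets showed this pattern. The Fru arrays did not overlap the Xyl arrays (2.63% of all probe sets were lower with Fru without overlap), whereas the Glc and Suc arrays overlapped them, and replicate 2 was the highest array of every group. The group means were 4.54 ± 0.34 (SD, n = 3) for Xyl, 4.02 ± 0.21 for Fru, 4.08 ± 0.50 for Glc and 4.12 ± 0.42 for Suc. The differences from Xyl were thus -0.52, -0.46 and -0.42 on the log2 scale, or 1.44-, 1.38- and 1.34-fold lower. In size these differences exceeded those of 99% of all probe sets with Fru, 98.4% with Glc and 97.8% with Suc. The 3 comparisons share their Xyl arrays. In bulk culture, fewer cells expressing a gene and less RNA per cell cannot be told apart.

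Whether this difference passed a test depended on the pairing of the arrays. In limma without pairing the SE was 0.29 and p was 0.10, 0.14 and 0.17 for Fru, Glc and Suc (adjusted p = 1 for each). With replicate number as a block, the SE was 0.13 and p was 0.0011, 0.0027 and 0.0049. Only the Fru difference then passed the unadjusted threshold of 0.002 from the study's methods, and the adjusted p-values in limma were 0.157, 0.173 and 0.230. With replicate number as a random block, whose estimated correlation was 0.612, p for Fru was 0.0045 and this call was lost (adjusted p = 0.404). Its 95% interval with the block was -0.79 to -0.25. With each array left out of the blocked fit in turn, *WRKY47* with Fru passed 0.002 in 8 of 12 fits, and p was 0.011 without Fru replicate 2, 0.00467 without Fru replicate 3, 0.00950 without Xyl replicate 1 and 0.00407 without Xyl replicate 2. The mean of the 3 sugars was 0.47 below Xyl on the log2 scale with an SE of 0.10 and an adjusted p of 0.092 in limma with the block, a pooling added after the values had been seen. Its unadjusted p was 0.00051, and 1.34% of all probe sets were below 0.002 in the same blocked comparison. With the random block the pooled difference had p of 0.0024 and did not pass 0.002 (adjusted p = 0.31).

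**Figure D1:**
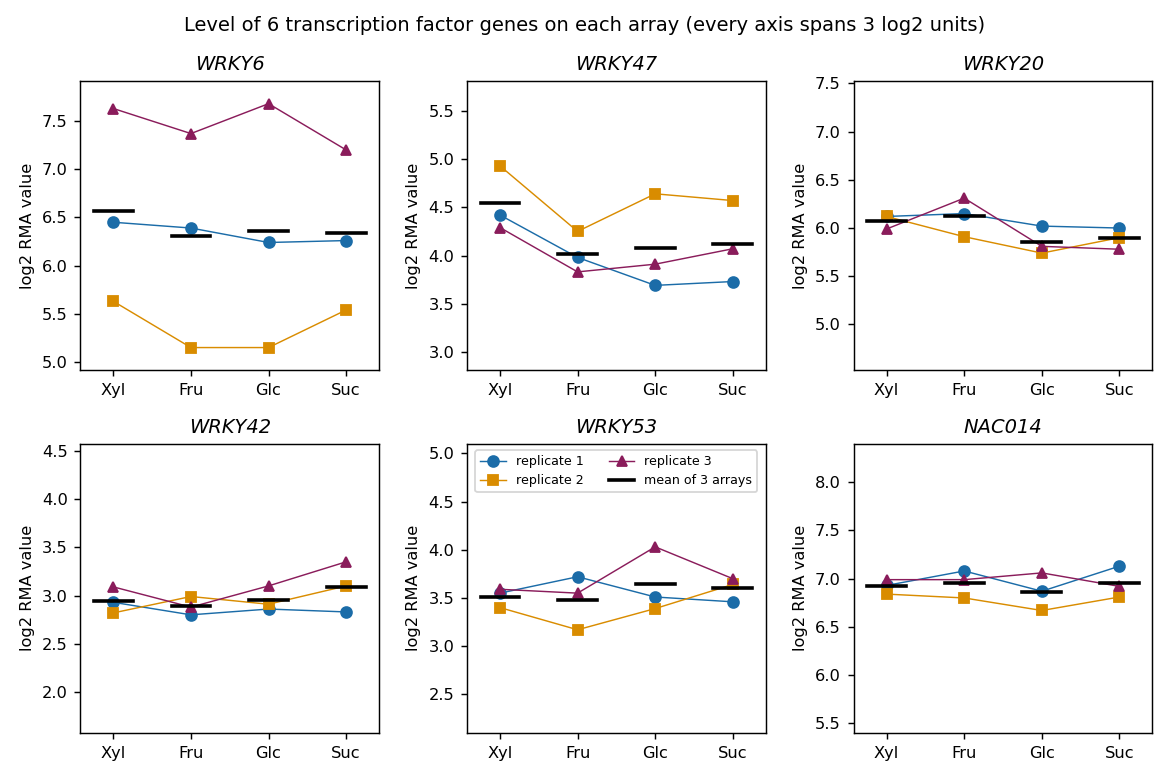
Log2 RMA value (vertical axis) of each of the 6 genes on each array by sugar (horizontal axis). Symbols joined by lines are the arrays of 1 replicate number, and black bars are means of 3 arrays. *WRKY47* is below its Xyl value at every sugar-treated array of the same replicate, and the *WRKY6* lines are separated by replicate.

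The other members differed less from Xyl, or less regularly. *WRKY6* had values of 6.45, 5.63 and 7.63 with Xyl, 6.39, 5.15 and 7.37 with Fru, 6.24, 5.15 and 7.68 with Glc, and 6.26, 5.54 and 7.20 with Suc. Every sugar overlapped Xyl widely, and the replicate number ordered the arrays in the same way in each group. Within replicates, 8 of 9 sugar-treated arrays were below their Xyl array, and Glc in replicate 3 was 0.05 above it. The mean differences were -0.27, -0.21 and -0.24 for Fru, Glc and Suc, with an SE of 0.79 without the block and 0.14 with it. None passed 0.002 in either fit, and with the block p was between 0.075 and 0.149. The 95% intervals with the block ran from -0.57 to 0.09 over the 3 sugars.

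*WRKY20*, in the group of the sugar-responsive barley factor, had values of 6.12, 6.12 and 5.99 with Xyl, 6.15, 5.91 and 6.31 with Fru, 6.02, 5.74 and 5.81 with Glc, and 5.996, 5.90 and 5.78 with Suc. Glc and Suc were below Xyl in each of the 3 replicates, while Fru was above it in replicates 1 and 3 and below it in replicate 2. The differences from Xyl were 0.05 for Fru, -0.22 for Glc and -0.18 for Suc, and their p with the block was 0.68, 0.072 and 0.12. Fru exceeded Glc by 0.26 with the block (95% interval 0.02 to 0.51, adjusted p = 0.529 in limma), the only 1 of the 18 differences between pairs of sugars in the members with an unadjusted p under 0.05 (7.68%, 11.3% and 8.97% of all probe sets for Suc with Glc, Suc with Fru and Fru with Glc). Sugar took 49.6% of the sum of squares of *WRKY20* over the 12 arrays, more than in the other 5 members. Replicate number took 15.5% and the rest 34.9%, so this share does not rank the members by response to sugar.

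*WRKY42* and *WRKY53* showed differences of either sign. *WRKY42* was at 2.93, 2.82 and 3.09 with Xyl, 2.80, 2.99 and 2.88 with Fru, 2.86, 2.91 and 3.10 with Glc, and 2.83, 3.10 and 3.35 with Suc. Its differences from Xyl were -0.05, 0.01 and 0.15, and the groups overlapped. *WRKY53* was at 3.55, 3.40 and 3.59 with Xyl, 3.72, 3.17 and 3.55 with Fru, 3.51, 3.39 and 4.03 with Glc, and 3.46, 3.64 and 3.70 with Suc. Its differences were -0.03, 0.13 and 0.09, again with overlapping groups. The 95% intervals with the block ran over the 3 sugars from -0.29 to 0.38 for *WRKY42* and from -0.33 to 0.43 for *WRKY53*. Both genes lay below the array medians of 4.69 to 4.83 on every array, where a response to sugar may not show.

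*NAC014* varied least of the 6 over the 12 arrays, with an SD of 0.13. It was at 6.93, 6.84 and 6.99 with Xyl, 7.08, 6.80 and 6.99 with Fru, 6.87, 6.67 and 7.06 with Glc, and 7.13, 6.81 and 6.92 with Suc. Differences from Xyl were 0.03, -0.06 and 0.03, with intervals from -0.27 to 0.24 with the block.

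Counted over the members, 0 of 6 passed 0.002 in any of the 6 sugar comparisons in limma without pairing, where 0.0835% of all probe sets passed for Fru, 0.044% for Glc and 0.0659% for Suc against Xyl, and 0.0572%, 0.0044% and 0.022% for Suc with Glc, Suc with Fru and Fru with Glc. Against Xyl, 0 of 6 also had p under 0.05 for Fru, Glc and Suc (2.57%, 2.11% and 2.04% of all probe sets). The methods' t-test called 0 of 6 at 0.002, but the share of all probe sets it called was not counted, so nothing is read from this 0. With the replicate block 1 of 6 passed 0.002 for Fru, *WRKY47*, and 0 for Glc and Suc, against 1.09%, 1.24% and 1.06% of all probe sets. In limma an adjusted p under 0.05 was reached by 0 members with or without the block, and by 0.0176% of all probe sets for Suc with the block and 0% in the other 5 fits. The median difference of the 6 members from Xyl was -0.04 for Fru, -0.14 for Glc and -0.08 for Suc, beside medians over all probe sets within 0.01 of 0. Below Xyl were 4, 4 and 3 of the 6 members, where 49.5%, 48.3% and 50.0% of all probe sets were. Between sugars, the *WRKY47* differences with the block were 0.10 for Suc over Fru (95% interval -0.17 to 0.37), 0.04 for Suc over Glc (-0.23 to 0.31) and -0.06 for Fru over Glc (-0.33 to 0.21).

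**Figure D2:**
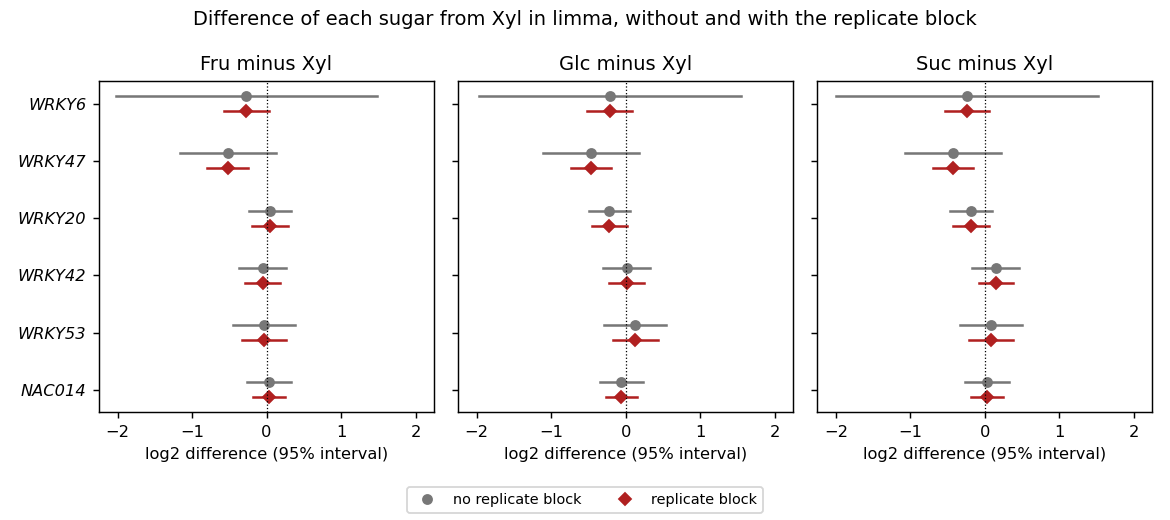
Log2 difference from Xyl (horizontal axis) of each gene (vertical axis) for Fru, Glc and Suc, with 95% intervals from limma without the replicate block (grey circles) and with it (red diamonds). The blocked *WRKY47* intervals lie below 0 with each sugar, and the *WRKY6* intervals narrow from an SE of 0.79 to 0.14.

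The largest differences among the members lay between replicate numbers, not sugars. *WRKY6* was at 7.20 to 7.68 on the 4 arrays of replicate 3, at 6.24 to 6.45 in replicate 1 and at 5.15 to 5.63 in replicate 2. The 3 sets of arrays did not overlap, and 3.03% of all probe sets had this order without overlap. Replicate means were 7.47 ± 0.23, 6.34 ± 0.10 and 5.36 ± 0.25 (SD, n = 4 arrays). The 4 arrays of a replicate number differ in sugar and belong to 1 biological replicate. In all comparisons between replicate numbers, the SD, SE and p-values thus measure spread between arrays within replicates, not between cultures. Replicate 3 exceeded replicate 2 by 2.11 on the log2 scale (SE 0.12), or 4.31-fold, with an adjusted p of 6.2e-09 in limma. It exceeded replicate 1 by 1.14 (2.198-fold, adjusted p = 3.7e-06), and replicate 1 exceeded replicate 2 by 0.97 (1.96-fold, adjusted p = 4.9e-05). Against replicates 1 and 2 together the difference was 1.62, or 3.08-fold (SE 0.10, adjusted p = 1.9e-08), where 9.82% of all probe sets differed by 1 or more in size. With any 1 array left out it stayed between 1.499 and 1.73. Replicate number took 95.9% of the sum of squares of *WRKY6* and sugar 1.45%. The dividing cell marker *AUR1* was 3.03 lower in replicate 3 than in replicates 1 and 2 (adjusted p = 1.7e-11). Of the leaf mesophyll markers, 2 of 10 were named, and *RCA* was 1.02 and *LHCB4.2* 0.39 higher in replicate 3 (adjusted p = 5.2e-07 and 0.0040), while *EXPA7* and *EXPA18* differed by 0.14 and -0.11 (adjusted p = 0.20 and 0.37). The part of these marker differences in the *WRKY6* difference was not tested.

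**Figure D3:**
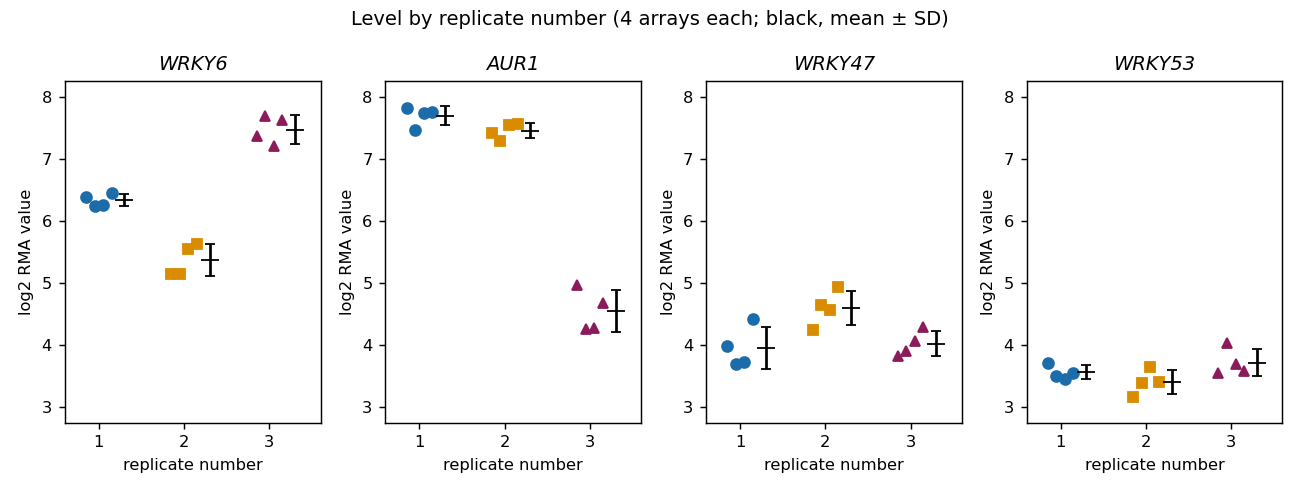
Log2 RMA value (vertical axis) of *WRKY6*, *AUR1*, *WRKY47* and *WRKY53* by replicate number (horizontal axis), with 4 arrays in each, 1 per sugar, and the mean ± SD in black. *WRKY6* has means of 6.34, 5.36 and 7.47 in replicates 1, 2 and 3, *AUR1* drops to 4.55 in replicate 3, and *WRKY47* is highest in replicate 2.

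*WRKY47* had another replicate pattern, with replicate 2 above both others. Its means were 3.95 ± 0.33, 4.60 ± 0.28 and 4.03 ± 0.20 in replicates 1, 2 and 3. Replicates 1 and 3 were 0.64 and 0.57 below replicate 2 (adjusted p = 6.0e-04 for each), and replicate 3 differed from replicate 1 by 0.07 (adjusted p = 0.63). Replicate number took 59.0% of its sum of squares, sugar 30.5% and the rest 10.5%. Against replicates 1 and 2 together replicate 3 was 0.25 lower (adjusted p = 0.044). This call was lost without any 1 of 8 arrays, those of Fru replicates 1 and 3, Glc replicates 2 and 3, Suc replicate 2 and all 3 Xyl replicates, with adjusted p-values up to 0.162 in limma.

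Small replicate differences were seen in *WRKY53* and *WRKY42*. *WRKY53* was 0.32 higher in replicate 3 than in replicate 2 (adjusted p = 0.043), with arrays at 3.55 to 4.03 and 3.17 to 3.64. *WRKY42* was 0.25 higher in replicate 3 than in replicate 1 (adjusted p = 0.046), with arrays at 2.88 to 3.35 and 2.80 to 2.93. *NAC014* was at 6.67 to 6.84 in replicate 2, below the 6.87 to 7.13 of replicate 1 without overlap (28.5% of all probe sets did not overlap between these replicates), a difference of 0.22 that did not pass (adjusted p = 0.071). *WRKY20* did not pass in any of these comparisons, and its differences were 0.15 or less in size.

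With an adjusted p under 0.05, 2 of 6 members differed between replicate 3 and replicates 1 and 2 (47.9% of all probe sets), 2 between replicates 1 and 2 (27.8%), 2 between replicates 3 and 1 (43.3%) and 3 between replicates 3 and 2 (46.6%). With 6 members, nothing about the group is read from these counts. The sizes were not all alike: in replicate 3 against replicates 1 and 2, 96.4% of all probe sets differed by less than *WRKY6*, and 6.56% by less than *WRKY20*.

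**Figure D4:**
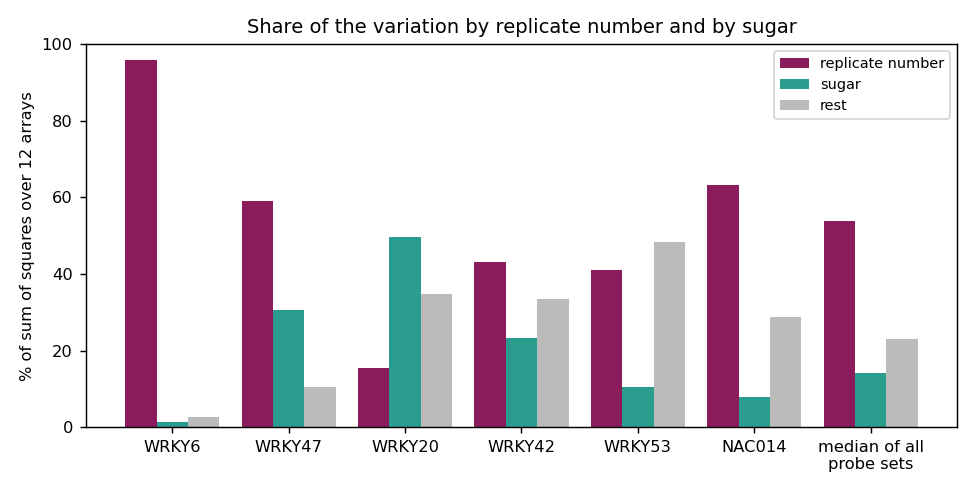
Share of the sum of squares over the 12 arrays, in percent (vertical axis), that went with replicate number, sugar and the rest, for each gene and as the median over all probe sets (horizontal axis). Replicate number took 95.9% in *WRKY6*. In *WRKY20* replicate number took 15.5% and sugar 49.6%, beside medians of 54.0% and 14.2%.

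Few genes of the pathways that these families act in were named by the annotation used here. Of 16 WRKY genes listed for defence, *WRKY6* and *WRKY53* were present, of 5 for nutrient starvation *WRKY6* and *WRKY42*, and of 15 membrane-tethered NAC genes *NAC014*. The other 12 lists of family members by role had 0 named. Of at most 57 listed genes downstream of these families or partners of them, 5 were named, and 0 of the 5 passed 0.002 in any sugar comparison with or without the block. Of all probe sets, 0.0044% to 0.0835% passed without the block and, against Xyl, 1.06% to 1.24% with it. With 5 genes, nothing about these pathways is read from this count. The closest of the 5 to the threshold was *UGT74B1*, a glucosyltransferase of glucosinolate synthesis, at -0.32 with Fru, -0.24 with Glc and -0.24 with Suc against Xyl (adjusted p = 0.269, 0.407 and 0.436 in limma with the block). *BCAT4*, which acts in methionine chain elongation for glucosinolates, differed by 0.10, 0.22 and 0.07. *DFR*, an enzyme of anthocyanin synthesis, and *IRX10*, of xylan synthesis in the secondary wall, differed from Xyl by no more than 0.17 in size with any sugar. The replicate means of *BCAT4*, *DFR* and *IRX10* lay below the array medians of 4.69 to 4.83. *NDB4*, an alternative NADH dehydrogenase of mitochondria, was 0.48 lower in replicate 3 than in replicates 1 and 2 (adjusted p = 3.6e-05), and its differences from Xyl lay between -0.19 and -0.05.

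A pair of further genes bear on the members. *ZAP1*, which encodes WRKY1 under a symbol the naming rule does not take, differed from Xyl by -0.01, 0.04 and -0.09 with Fru, Glc and Suc (p between 0.45 and 0.91 with the block). *APL3*, a large subunit gene of ADP-glucose pyrophosphorylase in starch synthesis and a known sugar-induced gene, differed by 0.04, 0.16 and -0.08 (p between 0.25 and 0.78 with the block). Its replicate means, 2.94, 3.59 and 2.90, lay below the array medians of 4.69 to 4.83, where a response to sugar may not show. Replicate 2 stood apart: replicates 1 and 3 were 0.64 and 0.68 below it (adjusted p = 0.0010 and 0.00023), while replicates 3 and 1 differed by -0.04 (adjusted p = 0.81).

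The named probe sets most like *WRKY6* over the 12 arrays, by Pearson correlation, a rule set after values had been seen, were those of AT2G39210 (r = 0.983), AT5G41800 (r = 0.983) and AT1G56080 (r = 0.982). For *WRKY47* they were AT1G58110 (r = 0.940), AT4G00520 (r = 0.928) and AT4G15430 (r = 0.927). Arrays with the same replicate number were alike, and these values were not separated from the replicate means. With the mean of each replicate taken out, the highest for *WRKY47* were *NRPC1* (r = 0.939), AT3G49490 (r = 0.926) and *UGT74B1* (r = 0.912), and for *WRKY6* AT3G05620 (r = 0.957), AT2G39950 (r = 0.932) and *LD* (r = 0.926). Each is the top of 13512 correlations over 12 arrays, given as a description with no test.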

How the data were processed

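RNA of 12 samples, 3 per sugar, was measured on Affymetrix ATH1 arrays. The authors deposited log2 values after RMA, that is background correction, quantile normalization between arrays and summary of the probes of a probe set, and Affymetrix Expression Console, RMA and limma are the tools listed in the submitters' processing notes, with versions not given in the sources used here. Quantile normalization forces the arrays to 1 distribution, so a shift of most genes at once would not show. A second deposited table repeats the 12 columns beside the authors' log2 fold changes, p-values, adjusted p-values and B statistics of 6 comparisons, which were not used.

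Of 22810 probe sets, controls included, 13513 had 1 gene in the platform's annotation, 503 several and 8794 none. Without 64 control probe sets, 22746 were tested. Gene identifiers, chromosomes and lengths came from a TAIR10.1 table, and as the array files name no assembly no coordinates are given. Groups were compared in limma 3.58.1 (R 4.3.3), in 1 fit over 4 sugars without a block (8 residual degrees of freedom), two-sided, at the methods' unadjusted threshold of 0.002 and at 0.05 after Benjamini-Hochberg adjustment over all probe sets. Replicates were compared with sugar and replicate number as terms (6 residual degrees of freedom). The fits were tested on simulated data. The replicate numbers come from the sample labels, and the methods describe homogeneous culture divided between flasks. All 18 same-numbered pairs of arrays deviated together from their group means (r from 0.772 to 0.938, median 0.868), so the numbers pair the samples and blocked values are given. Whether replicates were separate cultures is stated only as biological repeats, and p-values measure the spread between these samples. The number of arrays limits the precision.

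All 6 members are named, by the rule that each family's 5 highest genes and any past a threshold are. The members, lists and tests were chosen with earlier results of these data known. Alternatives were the block (fixed or random), Student's t-test, trended and robust variance, a level filter, centring, cyclic loess, leaving out probe sets with suffixes _s_at or _x_at, leaving out the sugar term, each array or replicate 3. Figures were drawn in matplotlib 3.10.9.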

Additional observations from a re-analysis of the deposited data

Results flagged for a closer look

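*WRKY42* differed from Xyl in opposite directions in replicates 1 and 2. All 3 sugars were above Xyl in replicate 2, on average by 0.186 on the log2 scale, and all 3 were below it in replicate 1, with a mean difference of -0.0960. The 3 differences in a replicate share 1 Xyl array, at 2.93 in replicate 1 and 2.82 in replicate 2. The share of all probe sets with this pattern was not counted. All *WRKY42* values lay between 2.80 and 3.35, below the array medians of 4.69 to 4.83. The difference between replicates 1 and 2 was not tested. In replicate 3 the sugars lay on both sides of Xyl.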

How the results depend on the processing

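Over the alternatives run, 906 values of single genes kept their direction and their side of the threshold, 33 passed it only under the alternative, 12 no longer passed it, and 57 changed sign, none of the 57 with p under 0.002 and with adjusted p no lower than 0.632. Part of the 906 was fixed in advance, so the count does not measure robustness. Leaving out probe sets with suffixes _s_at or _x_at removed no member and changed no value. On all 12 arrays the block alters no difference between sugars, so no sign could change there. The count of members past 0.002 for Fru against Xyl was 1 with the replicate block in place of 0, and 0 with a random block. With the block and 1 array left out it was 0 to 1 for Fru and 0 to 1 for Glc, the Glc call being *WRKY47* without Fru replicate 1, Fru replicate 2 or Glc replicate 2. The pairing moved no other count. The count of members that differed in replicate 3 against replicates 1 and 2 was 1 in place of 2 without the sugar term, with trended and robust variance, among the 11373 probe sets above the median level (3 members) and after cyclic loess. After centring it was 3, with *WRKY42* and *WRKY53* past the threshold and *WRKY47* not, and it was 1 to 3 with 1 array left out. In the main fit 47.9% of all probe sets passed in this comparison. The shares under these alternatives were not counted, so nothing about the group is read from the counts. The cause of these changes was not tested, except that the level filter leaves out *WRKY47*. Signs changed as follows. Centring gave *WRKY53* with Fru 0.018 and *WRKY20* in replicate 3 0.051, and cyclic loess gave *WRKY42* with Glc -0.018. Replicates 1 and 2 alone, with or without the block, a choice made after seeing the data, gave *WRKY20* with Fru -0.090, *WRKY42* with Fru 0.024 and *WRKY53* with Glc -0.028. With 1 array left out, with and without the block, differences from Xyl ran over these ranges. For *WRKY6* they were -0.80 to 0.31 with Fru, -0.88 to 0.39 with Glc, -0.71 to 0.29 with Suc and -0.71 to 0.29 for the 3 sugars pooled. The *WRKY6* limits with Fru, -0.80 and 0.31, came from fits without the block that lacked Fru replicate 3 and Fru replicate 2. With the block, the same arrays left out gave -0.26 and -0.18. Without the block, leaving out an array also changes the mix of replicates in its group mean. In the order Fru, Glc, Suc and pooled, the ranges for *NAC014* were -0.029 to 0.11, -0.16 to 0.040, -0.061 to 0.099 and -0.044 to 0.041. For *WRKY53* they were -0.19 to 0.12, -0.065 to 0.26, -0.044 to 0.18 and -0.0044 to 0.11. For *WRKY42* they were -0.13 to 0.042 with Fru, -0.061 to 0.086 with Glc and -0.039 to 0.11 pooled. *WRKY20* ranged from -0.087 to 0.15 with Fru, and from -0.12 to 0.029 in replicate 3 against replicates 1 and 2.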
